A study of Mus musculus with 32 samples.

Results

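The genes described here are 4 class IIa histone deacetylases (Hdac4, Hdac5, Hdac7 and Hdac9), the corepressor Dach2 and 3 Mef2 transcription factors (Mef2a, Mef2c and Mef2d). They were chosen by name as regulators of activity-dependent transcription in muscle, and all 8 were found among the 33397 genes of the expression table and passed the filter on low values. RNA was sequenced from gastrocnemius (GAS) muscle of C57BL/6 mice (C57BL/6J in the study's methods) whose sciatic nerve had been cut, in 8 groups of 4 samples at 0, 1, 3, 5, 7, 14, 21 and 28 d after denervation. The study's methods describe male mice and a left-sided resection of part of the nerve, under isoflurane with buprenorphine as analgesic. The labels give the transection as the treatment of all 8 groups, the 0 d group included, while the study speaks of a nondenervated sham group as its reference. The 4 columns named C were taken as the 0 d group because every other column carries the day of a labelled group. The labels name no transgene or drug and give no age, which the study's methods give as some weeks.

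Class IIa histone deacetylases have little enzymatic activity of their own and act as signal-dependent corepressors, which bind MEF2 factors at muscle promoters. Calcium-activated and related kinases phosphorylate them, 14-3-3 proteins then hold them in the cytoplasm, and loss of the nerve is known to bring HDAC4 and HDAC5 into the nuclei of the fibres. Dach2 is a corepressor that works with proteins of the Eya family, is known to repress the myogenin gene in innervated muscle, and is itself a known target of HDAC4 and HDAC5 repression after denervation. Myogenin in turn activates genes of the acetylcholine receptor and of muscle atrophy.

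Promoter sequences are shown for the 3 genes that this known chain links, Hdac4, Dach2 and Myog, and for Hdac5, the member whose window held a MEF2 consensus. Each window is the 250 bases before a RefSeq transcription start (GRCm38.p6), printed in the direction of transcription. Capitals mark matches, on either strand, to an E box (CANNTG, the site of myogenic bHLH factors), to the MEF2 consensus or to the MEF3 site (TCAGGTT). The MEF2 consensus was taken as YTAWWWWTAR, where Y is C or T, W is A or T and R is A or G. Near matches were not marked. No window shown has matches that overlap. An E box was present in 66.2% of 32851 RefSeq promoter windows of the same length, the MEF2 consensus in 2.92% and the MEF3 site in 3.49%. A match is a description of the letters and no measurement of binding.
Hdac4, chr1:92180342-92180591, minus strand: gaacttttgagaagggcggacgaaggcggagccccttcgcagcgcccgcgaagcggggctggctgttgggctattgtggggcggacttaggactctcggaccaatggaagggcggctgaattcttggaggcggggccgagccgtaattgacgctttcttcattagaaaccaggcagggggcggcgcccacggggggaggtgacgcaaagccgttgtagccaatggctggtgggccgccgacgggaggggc
Hdac5, chr11:102230173-102230422, minus strand: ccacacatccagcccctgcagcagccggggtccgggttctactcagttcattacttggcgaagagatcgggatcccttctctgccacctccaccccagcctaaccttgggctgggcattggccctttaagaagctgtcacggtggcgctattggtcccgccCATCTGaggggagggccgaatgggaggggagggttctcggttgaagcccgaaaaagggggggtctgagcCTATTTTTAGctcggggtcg
Dach2, chrX:113297260-113297509, plus strand: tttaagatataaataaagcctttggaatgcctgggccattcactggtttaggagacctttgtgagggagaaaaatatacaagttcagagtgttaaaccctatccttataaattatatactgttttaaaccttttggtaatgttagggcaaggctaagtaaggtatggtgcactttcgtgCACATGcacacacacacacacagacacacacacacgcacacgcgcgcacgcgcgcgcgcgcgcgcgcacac
Myog, chr1:134289754-134290003, plus strand: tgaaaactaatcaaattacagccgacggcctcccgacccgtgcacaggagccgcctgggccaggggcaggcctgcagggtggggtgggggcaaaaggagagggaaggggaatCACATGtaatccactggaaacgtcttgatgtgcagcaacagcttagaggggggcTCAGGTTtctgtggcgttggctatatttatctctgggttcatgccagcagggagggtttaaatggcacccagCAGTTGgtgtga
The Hdac4 window held none of these letters and lies inside the longer GENCODE model of the gene, outside its exons. In the Hdac5 window the E box stood at bases -89 to -84 and the MEF2 consensus at bases -20 to -11, counted from the transcription start. The Dach2 window, which ends in a run of alternating C with A or G, held 1 E box at bases -71 to -66. RefSeq holds another start of Dach2, whose window (chrX:113298006-113298255, not shown) had none of these matches. The Myog window held 2 E boxes, at bases -138 to -133 and -12 to -7, and 1 MEF3 site at bases -84 to -78, and its last 15 bases fall in the GENCODE exon of the gene. It also holds the letters ctatatttat, which miss the MEF2 consensus used here in the last base only and are therefore unmarked.

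Levels are FPKM, fragment counts divided by exon length and by library size as the authors deposited them. The division by exon length lets genes of different length be set side by side, while comparisons between samples depend on the scaling, as given below. Differences from 0 d are given as log2(FPKM + 1), on which changes of genes near or under 1 FPKM look smaller than they are. A gene was called changed at a Benjamini-Hochberg adjusted p under 0.05 in limma over the 22071 genes tested together with a change of at least 1.5-fold on that scale. Totals recovered from the FPKM values were 14199902 to 17561584 fragments a library, so depth was similar throughout. The median of 11943 genes with a mean of at least 1 FPKM was shifted by 0.12 at 1 d and by 0.20 to 0.32 at 3 to 28 d, so median-ratio scaling, which sets the middle of the genes level between libraries, is given beside the deposited scale where it matters. As deposited, 1400 to 3403 genes were called higher and 550 to 1330 lower at the 7 time points, against 913 to 1987 higher and 1032 to 2021 lower with median-ratio scaling. Mitochondrially encoded genes held 14.5% to 18.2% of the fragments at 0 d and 6.70% to 17.1% later. Library a of the 3 d group stood apart, with a median correlation of 0.965 with its own group against 0.985 to 0.987 for the other 3, and 3 d values are also given without it where it matters. The extraction protocol in the labels speaks of retinas, but 6 retina markers summed to at most 0.524 FPKM, with Rcvrn at 2 fragments or fewer in every library, while 8 muscle fibre markers summed to at least 19957 FPKM.

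At 1 d, 2 of the 8 genes were called higher, Hdac4 and Mef2d, against 6.34% of all genes tested called higher, 2.49% called lower and 8.84% called in either direction. At each later time point 2 genes were called higher (Hdac4 and Mef2a) and 1 lower (Dach2). With median-ratio scaling 1 gene was called higher and 2 lower at 1 d, 1 higher and 3 lower at 3 d, 1 higher and 2 lower at 5 d, and 2 higher and 2 lower from 7 d on, beside 8.82% of all genes called in either direction at 1 d and 13.6% to 18.2% later. Among all genes tested, 13.2%, 14.9%, 15.4%, 14.6%, 11.8% and 14.2% were called higher at 3, 5, 7, 14, 21 and 28 d, and 6.03%, 3.86%, 4.1%, 3.83%, 3.93% and 4.1% were called lower, so that 19.3%, 18.8%, 19.5%, 18.5%, 15.7% and 18.3% were called in either direction. The groups did not overlap with 0 d for 6 of 8 genes at 1 d, 14 d and 21 d and for 5 of 8 at 3, 5, 7 and 28 d. Among all genes tested, groups without overlap made up 28.5%, 35.3%, 44.8%, 40.9%, 44.9%, 42.9% and 45.7% at the 7 time points in order. A limma F test over the 7 contrasts with 0 d was passed by 7 of 8 genes at adjusted p under 0.05, all but Hdac7 (adjusted p = 0.0554), against 63.2% of all genes tested. The 4 samples of a group are described in the study as biologically independent, but the labels do not name animals, so the p-values measure the spread between these samples. An exact permutation test of 4 against 4 samples cannot give a two-sided p below 0.0286, which was reached in each of the 38 of 56 comparisons of a gene with 0 d that were under 0.05. In whole muscle, fewer cells of a type and less RNA per cell cannot be told apart.

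**Figure D1:**
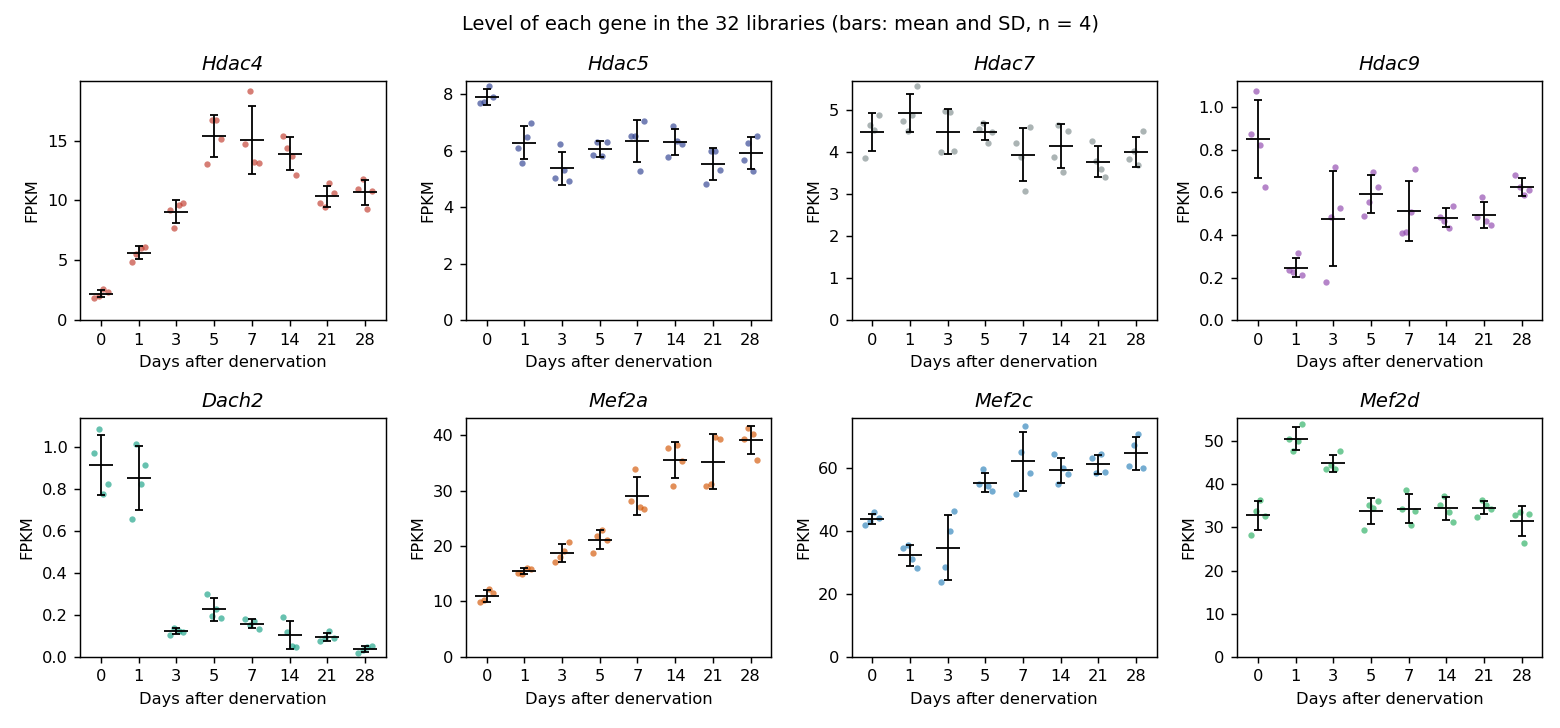
FPKM of each of the 8 genes in the 32 libraries (points) by days after denervation, with the group mean and SD (n = 4) as bars. Hdac4 went from a mean of 2.22 at 0 d to 15.4 at 5 d, Dach2 dropped between 1 d and 3 d, and Mef2a was highest at 28 d at 39.1.

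Hdac4 (ENSMUSG00000026313, chr1:91928779-92195699, minus strand) was the class IIa histone deacetylase that rose, and it did so at all 7 time points. At 0 d its level was 1.88, 2.05, 2.57 and 2.37 FPKM in the 4 samples, and at 1 d it was 4.89, 5.50, 6.02 and 6.14 FPKM. At 3 d the samples read 9.20, 7.72, 9.58 and 9.77 FPKM and at 5 d 13.03, 16.8, 16.7 and 15.1 FPKM. At 7 d they read 14.7, 19.1, 13.2 and 13.1 FPKM and at 14 d 15.4, 14.4, 13.7 and 12.1 FPKM. Every sample up to 5 d lay above all samples of the time point before it, and from 5 to 14 d the groups overlapped. At 21 d the level was 9.80, 9.44, 11.4 and 10.7 FPKM and at 28 d 10.9, 11.8, 9.26 and 10.8 FPKM, below all samples of 5 to 14 d and above all samples of 0 and 1 d. The means of 1, 3, 5, 7, 14, 21 and 28 d were 2.54, 4.09, 6.95, 6.78, 6.27, 4.66 and 4.82 times that of 0 d. On the log2(FPKM + 1) scale the difference was 1.05 (SE 0.11, limma adjusted p = 6.06e-09) at 1 d and 2.35 (SE 0.11, adjusted p = 1.20e-16) at 5 d, higher in 4 of 4 samples each time. With median-ratio scaling it was 0.93 to 2.05 over the 7 time points and was called at each. In order of the means, 0 d was below 1 d and 1 d below 3 d by the test (the latter by 0.60, or 0.56 and not called with median-ratio scaling), while 3, 21, 28, 14, 7 and 5 d followed with no neighbouring pair called. The 3 d and 5 d groups themselves differed by 0.70 (adjusted p = 9.70e-06, with 5.76% of all genes called between them), which became 0.56 and was not called with median-ratio scaling. The exons of Hdac4 overlap the antisense gene Gm26720 by 3536 bases, whose mean level was 0.00105 FPKM, and whether the counting used strand is not given in the sources used here.

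Hdac5 (ENSMUSG00000008855, chr11:102194432-102230166, minus strand), the class IIa enzyme with the highest level at 0 d, was lower at every later time point by less than 1.5-fold. Its level was 7.68, 7.73, 8.30 and 7.91 FPKM at 0 d and 6.09, 5.58, 6.50 and 6.98 FPKM at 1 d. The lowest mean was at 3 d, with samples of 5.03, 6.24, 5.30 and 4.91 FPKM. At 28 d the samples read 5.67, 6.27, 5.28 and 6.52 FPKM. No sample from 1 to 28 d reached the lowest sample of 0 d, and the highest of them, at 7 d, was 7.07 FPKM. The differences from 0 d were -0.49 at 3 d (SE 0.08, adjusted p = 9.32e-06 in limma) and between -0.45 and -0.28 at the other time points, with adjusted p from 3.27e-05 to 0.00542. None reached 1.5-fold as deposited. With median-ratio scaling Hdac5 was lower by more and was called at 3 to 28 d (-0.72 to -0.62), but not at 1 d (-0.46). No neighbours in the order of the 8 means were called different. The miRNA gene Mir8101 shares 111 bases with its exons on the same strand.

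Hdac7 (ENSMUSG00000022475, chr15:97792664-97844502, minus strand), a class IIa member known for its role in vascular endothelium, was called at no time point. Its samples ranged from 3.85 to 4.89 FPKM at 0 d and from 3.08 to 5.56 FPKM later, so that every later group overlapped with 0 d. The difference from 0 d ran from -0.20 at 21 d (adjusted p = 0.0833) to 0.11 at 1 d (adjusted p = 0.420). With median-ratio scaling all 7 differences were below zero (-0.47 to -0.04) and none was called. The summed level of 6 endothelial markers was 92.6 to 106 FPKM at 0 d, 95.1 to 117 FPKM at 1 d and 53.8 to 88.2 FPKM from 3 to 28 d, with 3 of 6 markers called lower at some time point, beside 8.19% of all genes tested. With median-ratio scaling 4 to 6 of the 6 were called lower at each time point from 3 d on. The part of these cells in the level of Hdac7 was not tested. Exons of Hdac7 share 29 bases with Slc48a1 on the other strand, which had a mean of 25.4 FPKM.

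Hdac9 (ENSMUSG00000004698, chr12:34047580-34917095, minus strand), whose best known product in muscle is a short MEF2-binding form without a deacetylase domain, was the lowest of the class IIa genes and had its minimum at 1 d. At 0 d the 4 samples read 0.876, 1.08, 0.822 and 0.627 FPKM, and at 1 d 0.235, 0.226, 0.313 and 0.211 FPKM. All 1 d samples lay well below all 0 d samples. The summed fragments were 764 at 0 d and 225 at 1 d, which is 3.44-fold lower relative to library size with an exact 95% interval of 2.96 to 4.00, which covers counting error only. At 3 d the samples read 0.178, 0.485, 0.720 and 0.525 FPKM, with the lowest value in the library that stood apart. At 14 d they read 0.485, 0.467, 0.433 and 0.538 FPKM and at 28 d 0.682, 0.625, 0.586 and 0.611 FPKM. The 28 d group overlapped with 0 d by its highest sample. On the log2(FPKM + 1) scale the difference at 1 d was -0.57 (SE 0.08, limma adjusted p = 3.63e-06, lower in 4 of 4 samples), just short of 1.5-fold on a scale that compresses values near or under its pseudocount of 1. With a pseudocount of 0.1 it was -1.45 and called, as were the differences at 7, 14 and 21 d (-0.69 to -0.64) and at 3 d (-0.80). Without the 3 d library that stood apart, a fit added after the data had been seen, the 3 d difference with a pseudocount of 0.1 was -0.49 (adjusted p = 0.0255), under 1.5-fold and not called. With median-ratio scaling 1 d alone was called (-0.68). The 1 d difference also passed 1.5-fold when library C4 of 0 d (-0.63) or library c of 1 d (-0.59) was left out. The 3 d mean was above that of 1 d by 0.23 on that scale (adjusted p = 0.0328), short of 1.5-fold.

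The makeup of the class IIa group changed with these levels, which is given as a share of the summed FPKM within each library, a quantity that scaling between libraries does not change. Hdac4 held 14.3% ± 1.34 (SD, n = 4) of the class IIa FPKM at 0 d, and 32.99% ± 1.82, 46.8% ± 5.02, 57.9% ± 2.77 and 50.3% ± 1.86 at 1, 3, 5 and 28 d. Hdac5 held 51.2% ± 1.79 at 0 d, and 36.8% ± 1.18, 22.9% ± 1.46 and 27.9% ± 0.912 at 1, 5 and 28 d. Hdac4 was thus the third of the 4 genes at 0 d and the first from 3 d on. The share of Hdac7 went from 28.9% ± 1.84 at 0 d to 15.3% ± 2.27 at 7 d, and that of Hdac9 from 5.53% ± 1.29 to 1.45% ± 0.268 at 1 d. The summed class IIa FPKM was 15.4 ± 0.824 at 0 d and 26.6 ± 1.90 at 5 d, so the sum was 1.72 times that of 0 d as deposited. Unlike the shares, the sum depends on the scaling. Median-ratio scaling divides the 0 d libraries by 0.81 to 0.86 and the 5 d libraries by 1.04 to 1.12, so the ratio is smaller on that scale. The shares were added after the data had been seen and carry no test.

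**Figure D2:**
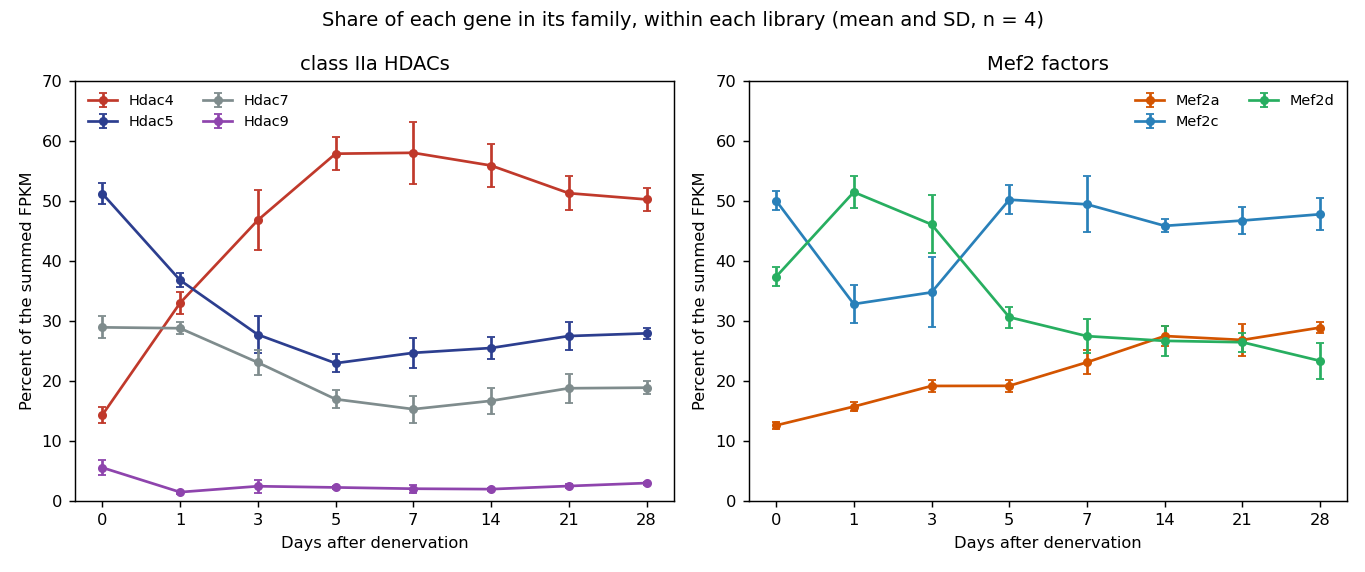
Percent of the summed FPKM held by each class IIa histone deacetylase (left) and each Mef2 factor (right) by days after denervation, as mean and SD of 4 libraries. The Hdac4 line crosses the Hdac5 line between 1 d and 3 d, and Mef2d is above Mef2c at 1 d and 3 d only.

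The other histone deacetylases were mostly not called. Of 7 (Hdac1, Hdac2, Hdac3, Hdac6, Hdac8, Hdac10 and Hdac11), all tested, Hdac6, a class IIb cytoplasmic tubulin deacetylase, was the 1 called at any time point, where 33.2% of all genes tested were called at 1 or more of the 7 time points, 25.7% higher and 8.19% lower. It rose at 5, 7 and 14 d (0.60 to 0.63), from a mean of 1.498 FPKM at 0 d to 2.84 FPKM at 14 d, and was not called with median-ratio scaling. The median difference of the 7 genes was 0.07 to 0.29 over the time points, beside 0.12 to 0.32 for the 11943 genes with a mean of at least 1 FPKM.

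Dach2 (ENSMUSG00000025592, chrX:113297510-113836386, plus strand) was not called at 1 d and fell from 3 d on. The 4 samples read 0.973, 1.09, 0.777 and 0.824 FPKM at 0 d and 0.657, 1.01, 0.824 and 0.914 FPKM at 1 d. These 2 groups overlapped. At 3 d the samples read 0.106, 0.139, 0.124 and 0.120 FPKM, at 5 d 0.301, 0.192, 0.227 and 0.184 FPKM and at 7 d 0.181, 0.151, 0.169 and 0.130 FPKM. Every one of these lay below all samples of 0 and 1 d. At 14 d they read 0.190, 0.117, 0.0536 and 0.0488 FPKM, at 21 d 0.0757, 0.0874, 0.121 and 0.0884 FPKM and at 28 d 0.0181, 0.0302, 0.0490 and 0.0520 FPKM. The 28 d group had the lowest mean, and each of its samples lay under the lowest sample of every group but that of 14 d. The difference from 0 d was -0.05 at 1 d (SE 0.05, limma adjusted p = 0.587), -0.77 at 3 d (SE 0.05, adjusted p = 1.31e-12) and -0.88 at 28 d (SE 0.05, adjusted p = 1.00e-13), with 4 of 4 samples lower from 3 d on. Because the level lies under the pseudocount, the fold is better read from fragments. The 4 libraries of each group together held 554, 526, 79, 151, 104, 70, 61 and 25 Dach2 fragments at 0, 1, 3, 5, 7, 14, 21 and 28 d. Relative to library size this was 7.44-fold lower than 0 d at 3 d (exact 95% interval 5.87 to 9.54) and 24.4-fold lower at 28 d (16.3 to 38.01), counting error only. Between 3 and 28 d a library held 3 to 50 fragments. On these fragments limma-voom put 28 d below 3, 5 and 7 d by log2 differences of -1.73, -2.58 and -2.09 (adjusted p = 0.00115, 8.12e-06 and 3.74e-04), each with no overlap of the samples. On the log2(FPKM + 1) scale the same differences were -0.11, -0.24 and -0.16 (adjusted p = 0.106, 0.00163 and 0.0513), all under 1.5-fold. Against 14 and 21 d limma-voom gave -1.28 and -1.33 for 28 d (adjusted p = 0.104 and 0.253), so that test did not set 28 d apart from these groups. In the order of the means the 1 neighbouring pair called was 5 d against 1 d, with 12.7% of all genes called between them. With median-ratio scaling Dach2 was called at the same 6 time points (-1.03 to -0.80). Its paralog Dach1 had a mean of 1.56 FPKM at 0 d and 0.600 FPKM at 3 d, was called lower at 3 d (-0.68) and was not called at other times.

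Myog, the myogenin gene that Dach2 is known to repress, rose at all 7 time points, already at 1 d when Dach2 was not called. It read 1.61, 1.61, 2.59 and 2.06 FPKM at 0 d, 28.8, 20.7, 27.4 and 24.02 FPKM at 1 d and 165, 218, 236 and 241 FPKM at 3 d. Each sample lay above all samples of the time points before it, and the differences from 0 d were 3.15 at 1 d (SE 0.12, limma adjusted p = 3.47e-17) and 6.18 at 3 d (adjusted p = 3.33e-24). From 5 to 28 d the samples ranged from 77.6 to 131 FPKM. Myog had its highest mean at 3 d and Hdac4 at 5 d, and Dach2 was first called lower at 3 d. No group was sampled between 1 d and 3 d, and whether these changes are linked was not tested.

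**Figure D3:**
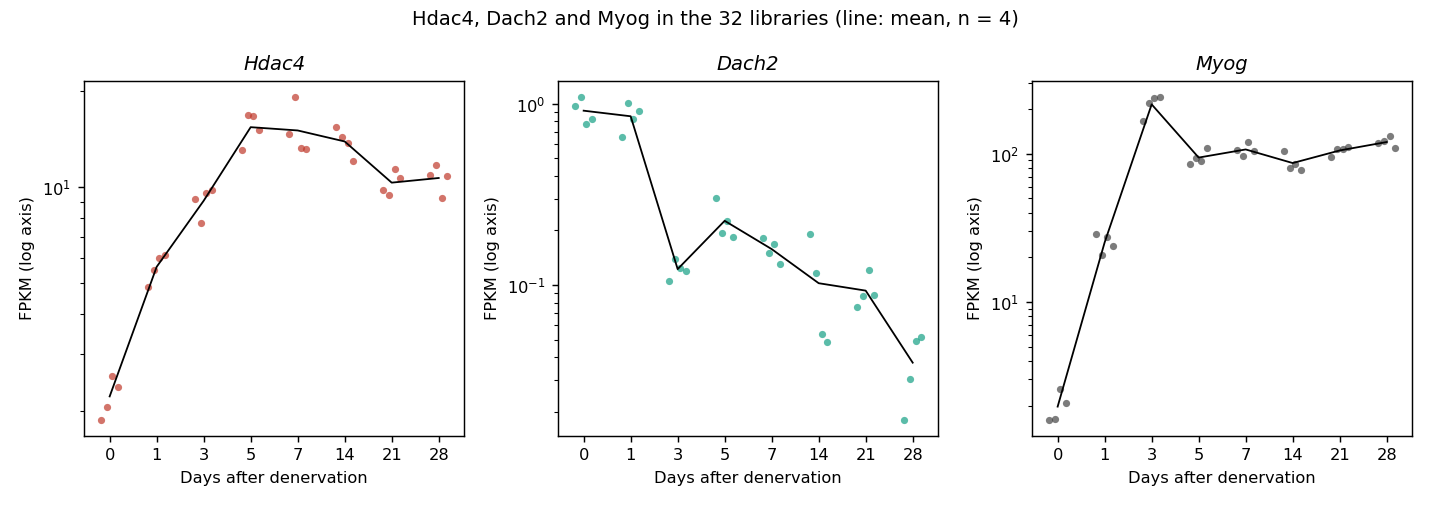
FPKM of Hdac4, Dach2 and Myog in the 32 libraries (points) on log axes by days after denervation, with a line through the group means (n = 4). At 1 d Hdac4 and Myog already lay above all 0 d samples, while Dach2 at 0.657, 1.01, 0.824 and 0.914 FPKM overlapped with them.

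Genes known to act with Dach proteins, the Eya family among them, moved in both directions. Of 8 such genes, 2 were called higher and 2 lower at some time point, beside 25.7% and 8.19% of all genes tested. Eya4, a coactivator phosphatase, rose at all 7 time points, from a mean of 6.51 FPKM at 0 d to 14.1 FPKM at 1 d (1.01) and 14.3 FPKM at 28 d. Eya3 rose from 3 d on (0.63 to 0.81), but with median-ratio scaling it was 0.40 to 0.50 and called at none of these, and Eya4 was not called at 3 d (0.44). Six2 fell from 3 d on (-0.80 to -1.28), and Eya1 fell at 3 d alone (-0.66), or from 3 d on with median-ratio scaling. The median of the 8 genes was -0.10 to 0.12 over the time points. With median-ratio scaling it was -0.31 to -0.01, 1 gene at most was called higher at a time point, and 2 were called lower from 3 d on.

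Mef2a (ENSMUSG00000030557, chr7:67231163-67372858, minus strand), one of the MADS-box factors that drive muscle genes, rose from 3 d on and had its highest mean at 28 d. The samples read 9.96, 10.3, 12.3 and 11.6 FPKM at 0 d, 15.04, 14.9, 16.1 and 15.8 FPKM at 1 d and 17.1, 18.03, 19.1 and 20.7 FPKM at 3 d. The 1 d and 3 d samples lay above all 0 d samples. At 5 d they read 18.7, 21.9, 22.9 and 21.1 FPKM, at 7 d 28.2, 33.98, 27.02 and 26.6 FPKM and at 14 d 37.6, 30.9, 38.2 and 35.4 FPKM. All 7 d samples lay above all 5 d samples. At 21 d they read 30.8, 31.2, 39.6 and 39.4 FPKM and at 28 d 39.3, 41.3, 40.2 and 35.5 FPKM, overlapping with each other and with 14 d. The means of 1, 3, 5, 7 and 28 d were 1.40, 1.70, 1.92, 2.63 and 3.54 times that of 0 d. The difference from 0 d was 0.45 at 1 d (limma adjusted p = 2.18e-04, under 1.5-fold), 0.71 at 3 d (SE 0.09, adjusted p = 1.33e-07) and 1.74 at 28 d (SE 0.09, adjusted p = 2.74e-15). With median-ratio scaling the calls at 3 d (0.50) and 5 d (0.52) were lost and those from 7 d on were kept (0.96 to 1.38). No neighbouring pair in the order of its 8 means was called, but the mean of 28 d was above those of 1, 3 and 5 d by 1.28, 1.02 and 0.86 on the log2 scale, each called (15% of all genes were called between 28 d and 1 d, 12% against 3 d and 4.81% against 5 d). Exons of Mef2a share 302 bases with Lysmd4 on the other strand, which had a mean of 3.76 FPKM.

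Mef2c (ENSMUSG00000005583, chr13:83504034-83667080, plus strand), the Mef2 gene with the highest level at 0 d, was not called against 0 d at any time point as deposited, yet its early and late levels stood apart. The samples read 42.01, 43.2, 45.97 and 43.97 FPKM at 0 d and 34.5, 35.4, 30.96 and 28.1 FPKM at 1 d. All 1 d samples lay below all 0 d samples. At 3 d they read 23.9, 28.7, 40.1 and 46.2 FPKM, the widest spread of its 8 groups, with the lowest value in the library that stood apart. At 5 d they read 54.95, 59.6, 54.1 and 52.7 FPKM, at 7 d 51.6, 65.1, 73.5 and 58.4 FPKM and at 28 d 60.5, 67.3, 70.9 and 59.9 FPKM. Every sample from 5 to 28 d lay above all samples of 0, 1 and 3 d. The difference from 0 d was -0.43 at 1 d (SE 0.13, limma adjusted p = 0.00932), -0.37 at 3 d (adjusted p = 0.0185) and 0.55 at 28 d (adjusted p = 7.02e-04), all under 1.5-fold. Without the 3 d library that stood apart the 3 d difference was -0.21 (adjusted p = 0.134). With median-ratio scaling Mef2c was called lower at 1 d (-0.62) and 3 d (-0.60), and its differences from 5 to 28 d were -0.05 to 0.17 and not called. Between time points, Mef2c at 28 d was above 1 d by 0.98 (SE 0.13, adjusted p = 2.86e-07) and above 3 d by 0.92 (adjusted p = 1.15e-06), called under both scalings.

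Mef2d (ENSMUSG00000001419, chr3:88142372-88172086, plus strand) rose at 1 d and was back near its 0 d level from 5 d on as deposited. The samples read 28.4, 33.8, 36.4 and 32.6 FPKM at 0 d, 50.6, 47.8, 49.97 and 54.05 FPKM at 1 d and 43.5, 44.5, 43.6 and 47.7 FPKM at 3 d. All samples of 1 and 3 d lay above all samples of the other 6 groups. At 5 d they read 29.5, 35.1, 34.6 and 36.01 FPKM, at 7 d 34.2, 38.7, 30.5 and 33.8 FPKM and at 28 d 32.8, 33.6, 26.3 and 33.2 FPKM. These 3 groups overlapped with 0 d. The mean was 1.54 times that of 0 d at 1 d, and the difference was 0.62 (SE 0.08, limma adjusted p = 6.08e-07, 4 of 4 samples higher). At 3 d it was 0.44 (adjusted p = 3.77e-05), under 1.5-fold, and from 5 to 28 d it was -0.06 to 0.08. The call at 1 d lies near the threshold. It was lost without library C1 of 0 d (0.55), without library d of 1 d (0.58) and with median-ratio scaling (0.43, adjusted p = 1.28e-04), where the values of 5 to 28 d were -0.43 to -0.22 and not called. The fall from 1 d to 28 d was called under both scalings (-0.67, adjusted p = 7.31e-08). Exons of Mef2d share 531 bases with an antisense gene, 1700113A16Rik, which had a mean of 0.383 FPKM.

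Within the Mef2 group, Mef2d held 37.4% ± 1.55 (SD, n = 4) of the summed FPKM at 0 d, and 51.5% ± 2.71 and 23.3% ± 2.94 at 1 and 28 d. Mef2c held 50.1% ± 1.58 at 0 d, and 32.8% ± 3.23 and 47.8% ± 2.64 at 1 and 28 d. Mef2a held 12.6% ± 0.582 at 0 d, and 15.7% ± 0.752 and 28.9% ± 0.876 at 1 and 28 d. At 1 d Mef2d was therefore the leading Mef2 transcript, ahead of Mef2c, and at 28 d the least of the 3. The fourth paralog, Mef2b, was at 8 fragments or fewer in every library.

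**Figure D4:**
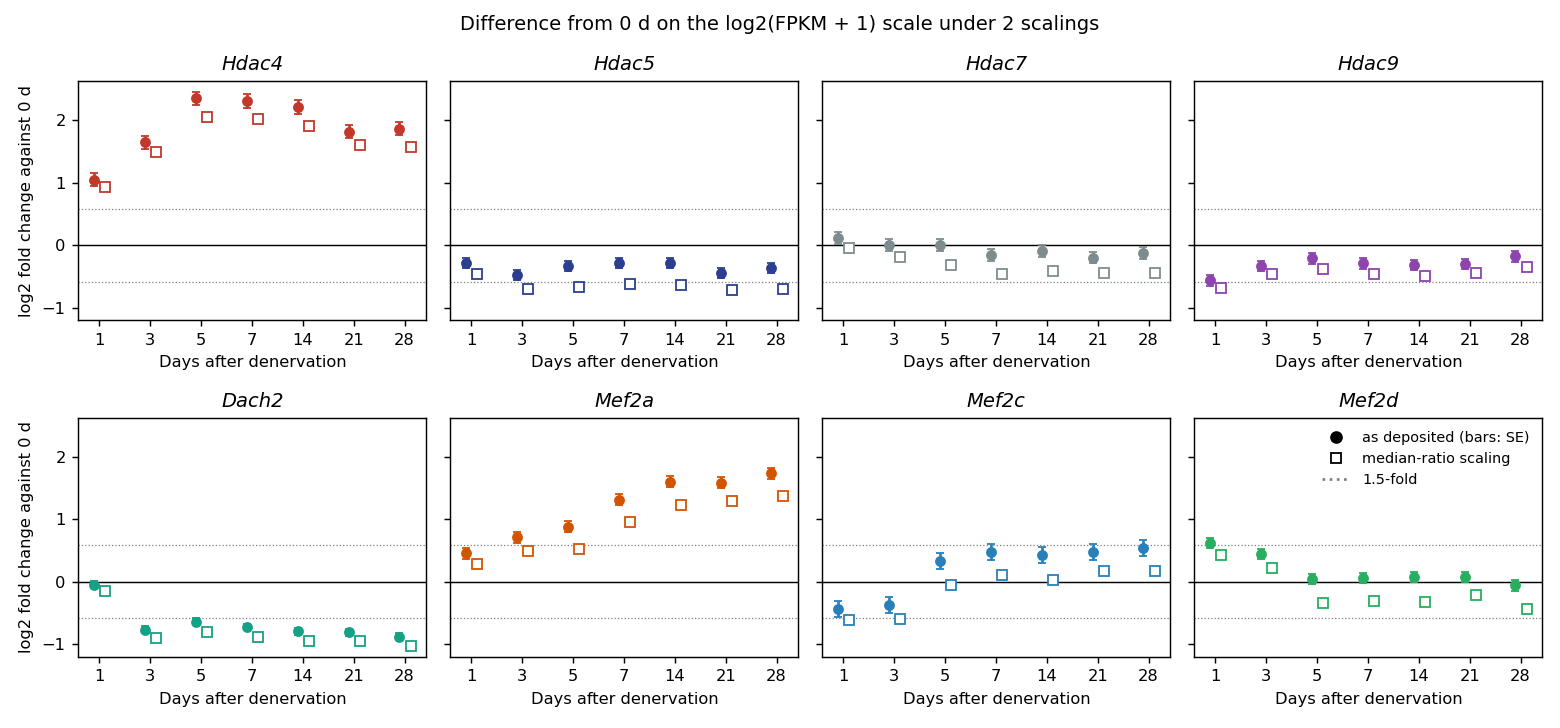
Difference of each gene from 0 d on the log2(FPKM + 1) scale at the 7 later time points, as deposited (filled, bars are the SE of the limma fit) and with median-ratio scaling (open), with dotted lines at 1.5-fold. Hdac4 and Dach2 lie past the same line under both scalings from 3 d on, while Hdac5 passes it from 3 d on with median-ratio scaling alone.

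The step between the first day and the last separated 5 of the 8 genes. From 1 d to 28 d, Hdac4, Mef2a and Mef2c rose by 0.82, 1.28 and 0.98, while Dach2 fell by 0.83 and Mef2d fell by 0.67, against 15% of all genes tested that were called between these 2 time points. From 1 d to 3 d Hdac4 rose by 0.60, a call lost with median-ratio scaling (0.56), and Dach2 fell by 0.72, against 10.6% of all genes called.

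Among 24 genes for kinases that phosphorylate class IIa histone deacetylases, the phosphatase PP2A and the 14-3-3 proteins that bind them, 9 were called higher and 1 lower at some time point, beside 25.7% and 8.19% of all genes tested. Sik1, a salt-inducible kinase, rose at all 7, from a mean of 2.61 FPKM at 0 d to 18.3 FPKM at 1 d (2.43) and 38.2 FPKM at 3 d (3.45). Camk2a, a calcium and calmodulin-dependent kinase, fell at all 7, from 58.7 FPKM at 0 d to 25.8 FPKM at 1 d (-1.15) and 7.64 FPKM at 28 d (-2.79). Camk2d rose from 5 d on, from 2.77 FPKM to 8.99 FPKM at 28 d (1.41). The 14-3-3 genes Ywhah and Ywhaz rose from 3 d on (0.59 to 0.96 and 0.72 to 0.87), and Ppp2ca, the catalytic subunit of PP2A, rose at 3 d alone (0.97). With median-ratio scaling Ywhah was 0.29 to 0.60 from 3 d on and called at 7 d alone, and Ywhaz was 0.39 to 0.62 and called at 3 d alone. By time point 1, 6, 8, 8, 7, 5 and 5 of the 24 genes were called higher, and 1, 3, 2, 3, 2, 2 and 2 with median-ratio scaling. Called lower was 1 gene at each time point, and 2, 2, 2, 2, 2, 3 and 2 with median-ratio scaling. The median of the 24 was 0.08 to 0.25, beside 0.12 to 0.32 for all genes of at least 1 FPKM.

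Of 15 corepressors and coactivators of these factors, 7 were called higher and 3 lower at some time point, with 1 of them in both directions, beside 25.7% and 8.19% of all genes tested. That gene was Akap6, the muscle anchoring protein mAKAP, with means of 6.78 FPKM at 0 d, 3.31 FPKM at 1 d (-0.85) and 15.6 FPKM at 28 d (1.09). Vgll2, a cofactor of TEAD and MEF2 factors, fell at 1 d from 27.6 to 9.83 FPKM (-1.41), was 0.08 from 0 d at 3 d, and was called lower again at 5 d (-0.59). Vgll4 fell at 1, 3, 14, 21 and 28 d (-0.64 to -0.86). Cbx5, which encodes the heterochromatin protein HP1 alpha, rose from 5 d on (0.82 to 1.15), with the calls at 5, 14 and 21 d lost with median-ratio scaling (0.51, 0.48 and 0.54). Carm1, an arginine methyltransferase and MEF2 coactivator, rose at 14 d alone (0.67), a call lost with median-ratio scaling (0.30). That scaling also called Vgll2 lower at 14, 21 and 28 d and Vgll4 lower at 5 and 7 d. At most 5 of the 15 genes were called higher at a time point, and at most 2 with median-ratio scaling.

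Known muscle targets of Mef2 factors did not follow 1 direction. Of 14, 5 were called higher and 9 lower at some time point, 3 of them both ways, beside 25.7% and 8.19% of all genes tested. Their median was -0.23 to -0.45, or -0.48 to -0.84 with median-ratio scaling. Xirp1, an actin-binding protein of the intercalated disc and myotendinous junction, rose from a mean of 22.8 FPKM at 0 d to 207 FPKM at 3 d (3.08) and was still called at 28 d (1.20). Nr4a1, an orphan nuclear receptor, fell from 37.7 FPKM to 10.6 FPKM at 3 d (-1.72) and 6.24 FPKM at 28 d (-2.40). Slc2a4, the insulin-responsive glucose transporter, fell from 3 d on (-1.18 to -2.04), and with median-ratio scaling at 1 d as well (-0.70), and Hrc, a calcium-binding protein of the sarcoplasmic reticulum, fell at all 7 time points (-0.74 to -2.16). Mb, which encodes myoglobin, fell at 1 to 5 d (-0.71, -2.35 and -0.72) and rose from 14 d on (0.84, 1.40 and 1.23), with the call at 14 d lost with median-ratio scaling (0.44). Myh7, the slow myosin heavy chain, went from 30.7 FPKM at 0 d to 3.84 FPKM at 3 d (-2.75) and was called higher at 28 d at 129 FPKM (2.03).

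The list of 12 synaptic and atrophy genes around myogenin held Myog itself. Of these, 10 were called higher and 2 lower at some time point, 1 of them both ways. Among all genes tested these shares were 25.7% and 8.19%. Whether each of the 12 lies downstream of myogenin was not tested. The embryonic acetylcholine receptor gamma subunit gene Chrng had a mean of 0.0394 FPKM at 0 d, 0.0237 FPKM at 1 d and 8.99 FPKM at 3 d (3.12). Chrnd and Chrna1 were likewise not called at 1 d (-0.05 and 0.27) and rose at 3 d (2.73 and 3.35). Gadd45a, a stress-induced gene, rose already at 1 d (3.30). By time point 6, 10, 10, 10, 9, 9 and 9 of the 12 were called higher, the same counts as with median-ratio scaling.

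Markers of other cells moved over the same days, and their calls at some time point stand beside 25.7% of all genes tested called higher and 8.19% lower. The sum of 7 macrophage and leukocyte markers was 17.5 to 23.4 FPKM at 0 d and 27.8 to 53.2, 123 to 200 and 48.9 to 54.9 FPKM at 1, 3 and 28 d, with 5 of 7 called higher at some time point. The sum of 8 muscle fibre markers was 32591 to 36390 FPKM at 0 d and 19957 to 34048 FPKM later, with 7 of 8 called lower and 2 of these also higher. Satellite cell markers (4) summed to 7.49 to 8.35 FPKM at 0 d, 14.3 to 16.8 FPKM at 5 d and 8.59 to 11.4 FPKM at 28 d, with 2 of 4 called higher. Schwann cell markers (5) summed to 76.3 to 169 FPKM at 0 d and 9.81 to 24.5 FPKM at 28 d, with 3 of 5 called lower and 1 higher. Fibroblast markers (5) summed to 388 to 515 FPKM at 0 d, 584 to 701 FPKM at 5 d and 494 to 652 FPKM at 28 d, with 3 of 5 called higher. Smooth muscle and pericyte markers (5) summed to 189.9 to 205 FPKM at 0 d and 128 to 139.8 FPKM at 28 d, with 2 of 5 called lower. Of 4 adipocyte markers 1 was called lower, at 3 d alone. The part of these cells in the levels of the 8 genes was not tested.

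The genes whose pattern was most like that of each called member were chosen by Pearson's r of log2(FPKM + 1) over the 32 libraries, among the other genes with a mean of at least 1 FPKM, leaving out predicted or unnamed genes (symbols of Gm and digits, ending in Rik, or an Ensembl ID only), which left 10847 genes, or 10848 for Dach2. For Hdac4 they were Adcy2, an adenylate cyclase (r = 0.972), Mical3 (0.968) and Phip (0.968). For Dach2 they were Odf3l2 (0.963), Scn4b, a sodium channel beta subunit (0.959), and Tcea3, a transcription elongation factor (0.951). For Mef2a they were Porcn, which acylates Wnt proteins (0.974), Emb (0.971) and Tiam2 (0.968), and for Mef2d they were Eif5, a translation initiation factor (0.909), the kinase gene Pim3 (0.904) and Ppp1r15a (0.903). The 32 libraries share the same 8 groups and the same scaling, so these values describe likeness over time and carry no test.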

How the data were processed

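Gene expression was measured by RNA-seq of total RNA in 32 GAS muscle libraries, 4 at each of 8 time points. The authors deposited 1 table of FPKM values per gene and library, made from reads aligned to GRCm38. The submitters' processing notes list CASAVA, HISAT2 2.1.0 and DESeq2, for which the authors' use and settings are not stated, and the counting tool, its annotation and its use of strand are not given in the sources used here. The labels tie columns to groups but not to single samples. Ensembl IDs were named by GENCODE mouse release 21 (33356 of 33397 matched), and fragments were recovered as FPKM times merged exon length. Between 99.3% and 99.4% of the recovered values under 200 fragments were whole within 0.05, and the recovered fragments served limma-voom as an alternative, with intervals that cover counting error only.

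Genes at or above 0.1 FPKM in 4 or more libraries were fitted on log2(FPKM + 1) with limma 3.58.1 (lmFit and eBayes with a variance trend, R 4.3.3), all 32 libraries in 1 fit, and all 28 pairs of groups were compared. Each contrast was Benjamini-Hochberg adjusted over all genes tested. The fit was tested on simulated data. A linear model was used because the deposited values are FPKM and the methods of the paper describe no test for its RNA-seq comparisons. Alternatives were another pseudocount (0.1), no filter or an FPKM of at least 1, median-ratio scaling, quantile normalization, TPM, a total without mitochondrially encoded genes, limma-voom, no variance trend, only the groups compared, no fold threshold and leaving out each library. The members, the gene lists and the tests were chosen with earlier results of these data known. Genes named from a list are at most 6, those with the largest called change, and any at 3 fragments or fewer in all libraries. Some genes that the rule names are counted with their list but not reported by name here. Promoter windows were taken from RefSeq (GRCm38.p6) by gene symbol, which matched all 8 members and Myog. No protein sequence was used.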

Additional observations from a re-analysis of the deposited data

Results flagged for a closer look

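Mef2d at 28 d had 1 sample at 26.3 FPKM while the other 3 lay between 32.8 and 33.6 FPKM, a gap of 0.899 of the range of the group. It was the only one of 64 groups (8 genes at 8 time points) with a sample this far from the others, and chance alone gives about 1 in 20 groups.

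The effects at 28 d and at 1 d, both against 0 d, differed for 5 genes by the contrast between these time points in the same limma fit (values on the log2(FPKM + 1) scale, 28 d minus 1 d, adjusted over all genes tested). Hdac4 differed by 0.82 (SE 0.11, adjusted p = 2.63e-07), Mef2a by 1.28 (SE 0.09, adjusted p = 2.33e-12) and Mef2c by 0.98 (SE 0.13, adjusted p = 2.86e-07). Dach2 differed by -0.83 (SE 0.05, adjusted p = 4.49e-13) and Mef2d by -0.67 (SE 0.08, adjusted p = 7.31e-08). Mef2c and Mef2d thus moved in opposite directions between the same 2 groups.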

How the results depend on the processing

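Hdac4 was called higher at all 7 time points and Dach2 lower at 3 to 28 d under every alternative that tested them, and in every fit that left out 1 library. Dach2 and Hdac9 did not pass the filter of 1 FPKM in 4 libraries. Of the calls of members as deposited, median-ratio scaling and quantile normalization each lost 3, and a total without mitochondrially encoded genes lost 1. As no call of Hdac4 or Dach2 was lost, these were calls of Mef2a or Mef2d. The number of members called, 2 at 1 d and 3 at each later time point, was 4 at 1 d with TPM (12.96% of all genes called), and 5 at 3, 7, 14, 21 and 28 d with limma-voom on median-ratio scaled fragments (23.5% to 30.1% of all genes), a combination added after the data had been seen. That combination called 7 neighbouring pairs in the order of the levels, against 3. With no fold threshold 6, 7, 6, 6, 6, 6 and 5 members were called at 1, 3, 5, 7, 14, 21 and 28 d, where 29.4% of all genes were called at 1 d and 41.8% to 47.7% later. Leaving out 1 library gave 1 to 3 members at 1 d.

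The sign of Hdac7 and of Mef2d from 5 d on depended on the scaling, and the cause was not tested. With median-ratio scaling Hdac7 was -0.043, -0.19 and -0.32 at 1, 3 and 5 d, Mef2c was -0.053 at 5 d, and Mef2d was -0.34, -0.31, -0.32 and -0.22 at 5, 7, 14 and 21 d. With limma-voom on scaled fragments these were -0.049, -0.24 and -0.38 for Hdac7, -0.054 for Mef2c, and -0.35, -0.31, -0.33 and -0.22 for Mef2d. With quantile normalization Hdac7 was -0.069, -0.20 and -0.31, and Mef2d -0.24, -0.23, -0.20 and -0.11. Without mitochondrially encoded genes in the total Hdac7 was -0.082 and -0.11 at 3 and 5 d, and Mef2d -0.085, -0.072, -0.078 and -0.023. With TPM Dach2 at 1 d was 0.0074, Hdac7 at 7, 14 and 28 d was 0.0023, 0.084 and 0.014, and Mef2d at 28 d was 0.11. Leaving out 1 library gave -0.056 to 0.043 for Hdac7 at 3 d and -0.052 to 0.041 at 5 d, -0.022 to 0.11, -0.0012 to 0.12 and -0.12 to 0.023 for Mef2d at 5, 7 and 28 d, and -0.090 to 0.0037 for Dach2 at 1 d. None of these reversed values had been called.

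No paired analysis was possible because the columns of 1 to 28 d carry letters in place of the replicate numbers of the labels, and the study describes other mice at each time point. Depth limits the precision of Dach2 after 1 d (3 to 50 fragments a library) and Hdac9 (40 to 236).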
